A study of Canis lupus familiaris with 5 samples.

Results

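The canine genes MIOX, INHBA, C30H15orf48 and SLCO4C1, were followed across bone marrow cells. They were taken by name as rows of the count matrices, 4 of 20257 features, because earlier results of these data had set them among genes of mature neutrophils. Their levels over the groups of cells below are therefore a description and carry no test. The 1 comparison tested for them is a split of late neutrophil cells by CXCL8. Members and gates were both chosen with earlier results of these data known. The p-values of the members in that split may therefore not be independent of the choice. Femoral marrow came from 3 healthy dogs with genotype given as Wt, and red cells were lysed before loading. Each marrow gave 1 unsorted library (whole marrow 1, 2 and 3). Marrows 2 and 3 also gave cells sorted as viable and CD34+, a surface mark of stem and progenitor cells (2 libraries). The labels used here give no age and no treatment, and the dogs are the replicates.

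Neutrophils pass through stages that load different granules. ELANE and MPO belong to the first granules of the promyelocyte, CAMP, LTF and MMP8 to the specific granules of the myelocyte and metamyelocyte, and MMP9 to the gelatinase granules that form later. Mature cells gain CXCR2 and CSF3R, receptors that govern release from marrow. Of the 4 genes, MIOX encodes myo-inositol oxygenase, which opens the inositol ring and is best known from kidney tubules. INHBA encodes the beta A subunit whose dimer is activin A, a ligand of the TGF-beta family. C30H15orf48 is the dog counterpart of C15orf48, a small mitochondrial protein related to the cytochrome c oxidase subunit NDUFA4 and raised in inflammation. SLCO4C1 encodes an organic anion transporter of the plasma membrane, also best known from kidney.

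Cells were sorted into 8 groups, called gates here, by raw counts of unique molecular identifiers (UMIs, 1 per captured transcript). The ELANE gate required 1% of a cell's UMIs, the cycling CAMP gate 1% CAMP with 2 UMIs of MKI67 and TOP2A, and the LTF+MMP8 gate 5 UMIs. The late gate required 3 UMIs of PADI3, PLA2G7 and ISG20 together, and the CXCL8 gate 2 UMIs of CXCL8, a neutrophil-attracting chemokine. The VCAN gate (2 UMIs) stood for monocytes, the AHSP gate (0.2% of UMIs) for red cell precursors, and the VPREB1 gate (5 UMIs) for B cell precursors. The gates overlap, and a fixed number of UMIs is reached more easily in a deep cell. Levels are given as counts per 1000000 UMIs (CPM) of the summed cells of a gate.

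Whole marrow held 7295, 4585 and 4343 kept cells with medians of 2694, 3689 and 4344 UMIs, and the sorted libraries held 4720 and 3765 cells with medians of 11622 and 14623. Between 3 and 11 cell barcodes were shared by any 2 libraries. The late gate held 4657, 2716 and 2764 cells, with 7 of 7 measured mature neutrophil markers detected and a summed marker level of 62277 to 82041 CPM, against 471.6 to 1214 in the AHSP gate. That sum was mostly S100A12 (59974 to 79727 CPM) and does not order the neutrophil gates by maturity, since it was 68599 to 72155 CPM in the cycling CAMP gate and, above the late gate in every marrow, 84219 to 91898 in the LTF+MMP8 gate. CSF3R was at 11.1, 18.0 and 12.04 CPM in the late gate, against 5.86, 10.4 and 8.94 in the LTF+MMP8 gate and 26.5, 41.2 and 27.8 in the CXCL8 gate. The AHSP gate detected 6 of 6 erythroid markers at a summed 18776 to 21201 CPM, against 1115 to 1913 in the late gate. AHSP-gate cells made up 5.96%, 9.64% and 6.03% of cells but 29.9%, 40.7% and 31.4% of all UMIs in whole marrow 1, 2 and 3.

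MIOX went against its place among mature neutrophil genes. Of its 2800, 5681 and 3883 UMIs in whole marrow 1, 2 and 3, AHSP-gate cells held 99.4%, 99.3% and 99.0%. Its level there was 178.8, 308.6 and 274.3 CPM, a mean of 253.9 ± 67.3 (SD, n = 3). Every marrow thus showed the same placement in cells that carry AHSP, the chaperone of alpha hemoglobin. MIOX was found in 64.1%, 82.6% and 85.1% of AHSP-gate cells, with a median of 8, 13 and 14 UMIs in the cells that held any, and up to 88 in 1 cell. At least 10 UMIs were counted in 119, 222 and 150 of those cells. Outside the AHSP gate the 3 marrows had 17, 42 and 38 MIOX UMIs in 17, 41 and 35 cells, with no more than 3 in a cell.

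The MIOX level rose with the hemoglobin chaperone itself. In whole marrow 1 it was 3.89 CPM where AHSP made up 0.2 to 0.5% of a cell's UMIs, 25.7 at 0.5 to 1%, 263.7 at 1 to 2% and 698.7 at 2% or more. In whole marrow 2 the first 3 of these bands gave 11.9, 211.5 and 619.1 CPM, and in whole marrow 3 they gave 14.2, 174.2 and 472.5. Just below the gate, in cells with an AHSP UMI but under 0.2%, the levels were 0.547, 1.24 and 1.28 CPM. Each marrow repeated the order of the bands, and the band next to the threshold held little MIOX on either side of it. Most AHSP-gate cells were cycling by MKI67 and TOP2A, and those 369, 418 and 239 cells held all but 23, 19 and 30 of the gate's MIOX UMIs. The cycling call needs 2 UMIs, and cycling cells were far deeper (median 41859, 42840 and 58705 UMIs against 1794, 1395 and 3655). By CPM, MIOX was at 181.5, 308.3 and 276.1 in cycling cells and 64.4, 440.5 and 149.4 in the others, with no common order. The AHSP bands divide a per-cell share within 1 gate, and cells of a marrow are not replicates.

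**Figure D1:**
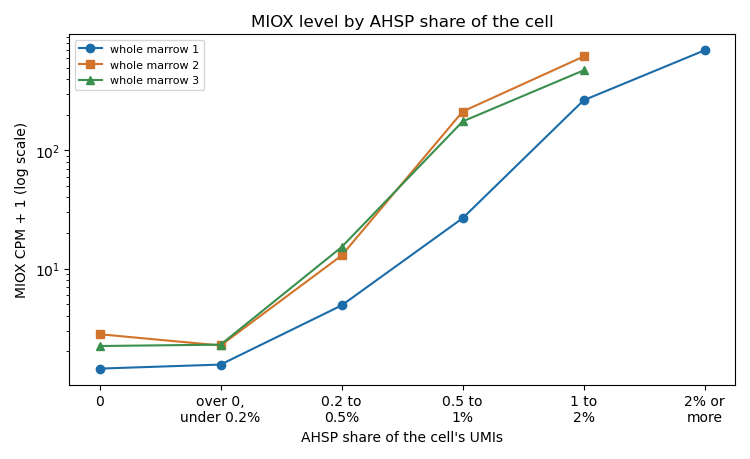
MIOX level (CPM plus 1, log axis) in whole-marrow cells grouped by the share of their UMIs that came from AHSP, with 1 point for each library. The level climbs from 3.89, 11.9 and 14.2 CPM in the 0.2 to 0.5% band to 263.7, 619.1 and 472.5 CPM in the 1 to 2% band, and the highest band held cells in whole marrow 1 only.

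Over the other gates MIOX was low, and most of that came from cells that also met the AHSP gate. In CPM (mean ± SD, n = 3) the order ran from 39.5 ± 10.0 in the CXCL8 gate and 33.6 ± 9.94 in the VCAN gate to 14.8 ± 5.29 in the LTF+MMP8 gate and 13.3 ± 0.526 in the late gate. It ended at 8.77 ± 13.3 in the VPREB1 gate, 4.38 ± 3.71 in the ELANE gate and 4.33 ± 2.43 in the cycling CAMP gate. The CXCL8 gate was above the VCAN gate in every marrow (37.8 against 28.5, 30.3 against 27.2 and 50.2 against 45.0 CPM), although their ranges overlapped. LTF+MMP8 and late gates, and the last 3, had no common order over the marrows. With AHSP-gate cells left out, the late gate fell to 1.35 ± 0.627 CPM and the CXCL8 gate to 2.06 ± 1.66, and the other 5 gates lay between 0.365 and 1.06.

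The cells shared by the late and AHSP gates numbered 66, 25 and 22 and held 217 of 228, 151 of 174 and 224 of 249 of the late gate's MIOX UMIs. Their median depth was 25080, 34826 and 45737 UMIs, against 2005, 2607 and 4138 in the other late cells. They carried S100A12, a calcium-binding protein of neutrophils, at 8060, 6868 and 8746 CPM beside AHSP at 11418, 8074 and 8826 CPM. A doublet score marked 12 of 66, 17 of 25 and 11 of 22 of them. Most MIOX UMIs of the late gate thus lay in deep cells that held transcripts of both lineages.

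In late cells outside the AHSP gate, MIOX stood at 0.378%, 0.622% and 0.525% of its AHSP-gate level. Erythroid genes measured the same way in the same cells gave 0.481 to 0.652% for AHSP, 0.647 to 0.873% for HBM (hemoglobin mu), 0.597 to 0.705% for ALAS2 (first step of heme synthesis) and 0.395 to 0.462% for HEMGN. Within each marrow the MIOX share was below those of HBM and ALAS2, and it had no common order with those of AHSP and HEMGN. After each cell was thinned to 1000 UMIs, MIOX was found in 11.5%, 29.0% and 22.9% of AHSP-gate cells and in 0.139%, 0.294% and 0.186% of late cells outside the gate (unthinned 64.1%, 82.6% and 85.1%, and 0.240%, 0.818% and 0.875%). A MIOX transcript in late neutrophils was therefore not detectable beyond the level at which red cell genes were counted in the same cells.

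The named genes among those closest to MIOX were red cell genes as well. Likeness was the Pearson correlation of log2(CPM + 1) over 24 sums, 8 gates in each of 3 whole marrows, against 9066 genes with at least 200 UMIs. The sums share libraries, depth and, through the overlap of gates, cells. HBM (r = 0.97) and ALAS2 (0.96) were among the 5 highest for MIOX, beside ENSCAFG00000032615 (0.99) and ENSCAFG00000030286 (0.98), for which the files give no symbol.

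**Figure D2:**
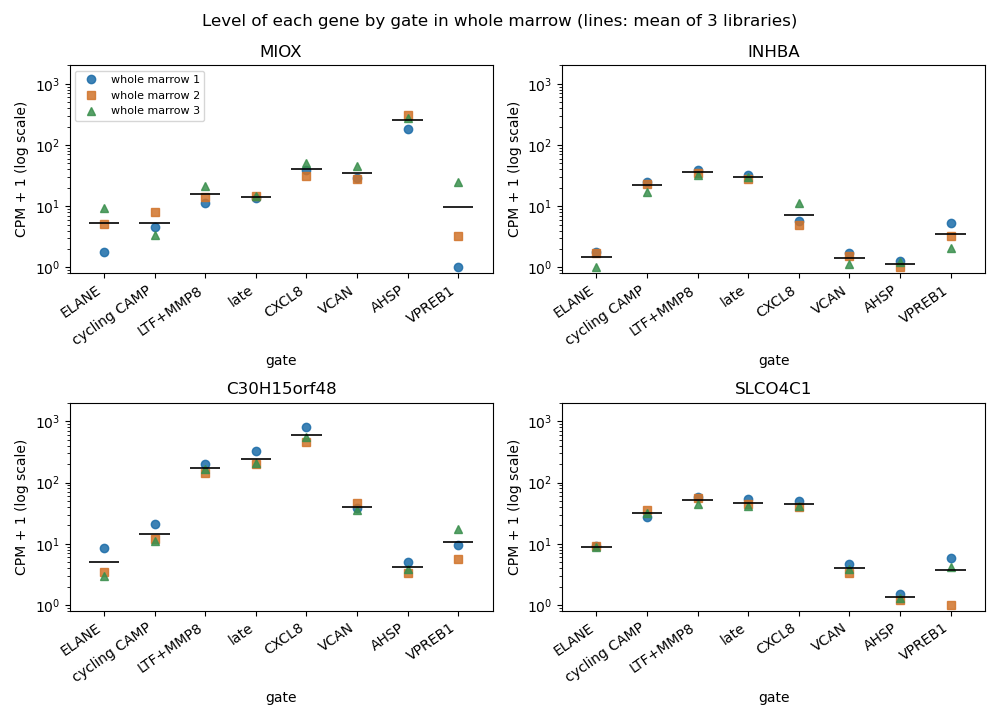
Level of each gene (CPM plus 1, log axis) in the 8 gates, with 1 point for each whole-marrow library and a line at the mean of 3. MIOX peaks in the AHSP gate (253.9 CPM), where the other 3 genes are at their lowest, INHBA and SLCO4C1 peak in the LTF+MMP8 gate (34.8 and 51.5 CPM), and C30H15orf48 peaks in the CXCL8 gate (601.5 CPM).

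INHBA, the activin A subunit, was highest in cells with LTF and MMP8 transcripts. In the LTF+MMP8 gate it reached 38.2, 34.5 and 31.7 CPM in whole marrow 1, 2 and 3 (34.8 ± 3.25, SD, n = 3). The late gate followed at 31.7, 26.7 and 28.8 CPM (29.1 ± 2.52), below the LTF+MMP8 gate in every marrow, and the cycling CAMP gate at 24.1, 22.2 and 16.3 CPM (20.9 ± 4.04), below every late-gate value. The level was 6.23 ± 3.36 CPM in the CXCL8 gate and 2.53 ± 1.62 in the VPREB1 gate, with overlapping ranges but the CXCL8 gate higher in every marrow. In the ELANE, VCAN and AHSP gates it was 0.509 ± 0.442, 0.454 ± 0.292 and 0.157 ± 0.138, 3 gates whose values overlap. INHBA was thus near 0 in ELANE-gate cells, present in cycling CAMP cells, and low again in CXCL8-positive cells.

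The gene was sparse in each cell. An INHBA UMI was found in 14.0%, 13.8% and 17.0% of LTF+MMP8-gate cells (median depth 2753, 3362 and 4708 UMIs) and in 3 of 435, 0 of 442 and 3 of 262 AHSP-gate cells, which were far deeper (38411, 41930 and 56426). A single UMI was the whole count in 83.8%, 81.4% and 73.4% of the positive LTF+MMP8-gate cells, and no cell held more than 6. Of all INHBA UMIs, 98.7%, 99.5% and 99.1% lay in LTF+MMP8-gate cells. That gate held 56.1%, 51.9% and 56.0% of cells and 34.1%, 25.9% and 38.9% of the UMIs of all genes.

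Cutting the gates into disjoint groups sharpened the INHBA pattern. AHSP-, VCAN- and VPREB1-gate cells were left out for this, and each remaining cell was counted once. INHBA was at 0.819, 0.756 and 0 CPM in ELANE cells and at 32.7, 29.9 and 23.5 CPM in cycling CAMP cells. LTF+MMP8 cells outside the late gate had 31.9, 27.8 and 12.8 CPM, the last from 74 cells. LTF+MMP8 cells that had entered the late gate but held fewer than 2 CXCL8 UMIs had 75.2, 70.1 and 70.9 CPM, above every other group in each marrow. CXCL8-positive late cells had 10.3, 6.42 and 16.3 CPM. INHBA therefore stood highest in cells with both LTF+MMP8 and late transcripts, the largest of the disjoint groups in each marrow (2373, 1250 and 1118 cells).

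The group labelled late only, with neither 5 LTF and MMP8 UMIs nor 2 CXCL8 UMIs, had 1 INHBA UMI in 846 cells. It was not a uniform neutrophil group. Its summed mature neutrophil markers came to 20906, 7294 and 3822 CPM, against 132728 to 147230 in the LTF+MMP8 and late group (7 of 7 markers detected in each). Summed plasma cell markers came to 384.9, 1077 and 1215 CPM against 1.78 to 57.2, and those of basophils and mast cells to 155.8, 758.1 and 1508 against 14.3 to 28.9. T cell markers came to 40.7, 99.9 and 222.3 CPM against 7.42 to 15.3, and B lineage markers to 6020, 5693 and 5657 against 1255 to 1530. The B lineage sum does not single out B cells. It was 4953 to 5493 CPM in the ELANE gate and 6552 to 7826 in the AHSP gate. The cycling gene MKI67 was at 258.8, 276.0 and 246.5 CPM against 36.6 to 41.3. The part of other cells in its values was not tested.

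**Figure D3:**
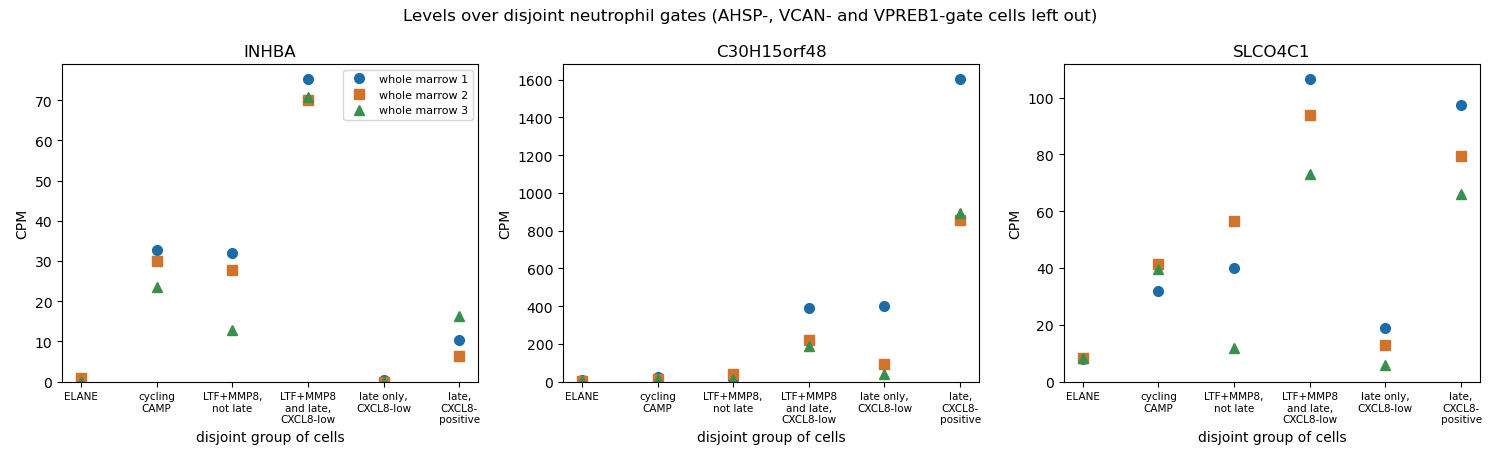
CPM of INHBA, C30H15orf48 and SLCO4C1 (linear axes from 0) in 6 disjoint groups of whole-marrow cells, with 1 point for each library. INHBA is highest in LTF+MMP8 and late cells without CXCL8 (75.2, 70.1 and 70.9 CPM), C30H15orf48 in CXCL8-positive late cells (1602, 855.0 and 893.0 CPM), and SLCO4C1 is high in both.

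C30H15orf48 was the late gene of the set. In the CXCL8 gate it reached 793.9, 451.4 and 559.3 CPM (601.5 ± 175.1, SD, n = 3), in the late gate 330.3, 198.8 and 206.7 CPM (245.3 ± 73.8) and in the LTF+MMP8 gate 203.0, 142.6 and 163.5 CPM (169.7 ± 30.7). In every marrow the order was CXCL8, late, LTF+MMP8, although the ranges of the late and LTF+MMP8 gates overlapped. Far below came the VCAN gate at 39.0 ± 4.96 CPM, then cycling CAMP at 13.7 ± 5.60, VPREB1 at 9.76 ± 5.91, ELANE at 4.04 ± 3.15 and AHSP at 3.11 ± 0.862, of which each of the last 4 overlapped the next. VCAN-gate cells outside the AHSP gate had 72.7 ± 10.6 CPM, and those in no other gate 19.1 ± 17.1, from 65 UMIs in 186 cells. The late gate held 97.4%, 95.7% and 98.2% of the C30H15orf48 UMIs, beside 63.8%, 59.2% and 63.6% of cells and 34.4%, 28.4% and 40.9% of the UMIs of all genes.

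Counts per cell were broad. A UMI was present in 64.9%, 55.1% and 64.6% of CXCL8-gate cells, although these were shallow (median depth 1040, 1340 and 2181 UMIs), and in 9.89%, 3.85% and 8.02% of the far deeper AHSP-gate cells. At an equal depth of 1000 UMIs the shares were 45.8 ± 4.04% in the CXCL8 gate, 27.0 ± 2.63% in the late gate, 21.7 ± 2.93% in the LTF+MMP8 gate, 8.97 ± 0.526% in the VCAN gate and 0.537 ± 0.625% in the AHSP gate. The positive CXCL8-gate cells held a median of 2, 2 and 3 UMIs and at most 23. The whole-marrow maximum was 40, in 1 LTF+MMP8 cell of marrow 2.

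Over the disjoint groups C30H15orf48 was at 6.69, 2.27 and 2.11 CPM in ELANE cells, 24.0, 11.96 and 11.4 in cycling CAMP cells and 12.4, 41.7 and 14.9 in LTF+MMP8 cells outside the late gate. It reached 389.9, 220.3 and 190.1 CPM in LTF+MMP8 and late cells and 1602, 855.0 and 893.0 in CXCL8-positive late cells. Those last 2 groups did not overlap with each other or with the earlier ones. In the late-only group the marrows were far apart, at 401.2, 90.9 and 38.5 CPM, as were its cells, 529, 224 and 93 with median depths of 820, 1234 and 10746 UMIs.

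SLCO4C1, the organic anion transporter, kept a similar level over the later neutrophil gates. It was at 56.1, 54.6 and 43.7 CPM in the LTF+MMP8 gate (51.5 ± 6.76), 52.7, 43.8 and 40.9 in the late gate (45.8 ± 6.15) and 49.1, 38.6 and 40.8 in the CXCL8 gate (42.8 ± 5.55). The ranges overlapped, and within each marrow the order was LTF+MMP8, late, CXCL8. With AHSP-gate cells left out, that order held in whole marrow 2 only (58.9, 46.4 and 43.2 CPM). The same gates then had 62.2, 57.7 and 62.4 CPM in whole marrow 1 and 47.9, 43.0 and 51.6 in whole marrow 3. With those cells counted, the cycling CAMP gate had 30.7 ± 3.76 CPM and the ELANE gate 7.98 ± 0.152. The VCAN, VPREB1 and AHSP gates had 2.99 ± 0.700, 2.70 ± 2.51 and 0.339 ± 0.155 CPM, each overlapping the next. Unlike INHBA it was above the AHSP-gate level in ELANE cells of every marrow, at 8.06, 8.07 and 7.80 CPM against 0.514, 0.219 and 0.285.

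SLCO4C1 was found in 20.9%, 22.6% and 25.3% of LTF+MMP8-gate cells and in 1.84%, 0.905% and 1.53% of AHSP-gate cells, and no cell held more than 5 UMIs. In the disjoint groups it was at 8.05, 8.32 and 8.23 CPM in ELANE cells, 32.0, 41.5 and 39.6 in cycling CAMP cells and 40.1, 56.5 and 11.7 in LTF+MMP8 cells outside the late gate. LTF+MMP8 and late cells had 106.7, 93.8 and 73.0 CPM and CXCL8-positive late cells 97.5, 79.4 and 66.1. In each marrow these 2 groups were the highest, in that order, and their ranges overlapped. The late-only group had 18.7, 13.0 and 5.70 CPM.

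The AHSP-gate levels of the 3 neutrophil genes were small shares of their late-gate levels. They came to 0 to 0.811% for INHBA, 1.18 to 1.42% for C30H15orf48 and 0.50 to 0.975% for SLCO4C1. Other neutrophil genes measured the same way gave 0.738 to 1.58% for S100A12, 0.971 to 1.69% for LTF and 0.787 to 1.68% for MMP8. The share of C30H15orf48 was below all 3 of these in whole marrow 1 and above all 3 in whole marrows 2 and 3.

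By the same measure of likeness, INHBA was closest to SYTL3 (r = 0.97), MMP8 (0.97, a gene of the gate itself), BDH1 (0.96), TCN1, a vitamin B12 carrier of specific granules (0.96), and CD177, a neutrophil surface protein (0.96). C30H15orf48 was closest to ISG20, RGS2, PLA2G7, RGS3 and PLAUR, the urokinase receptor (all 0.98), of which ISG20 and PLA2G7 define the late gate. SLCO4C1 was closest to MSRB1 (0.97), S100A8, a subunit of calprotectin (0.97), ENPP5 (0.96), LRG1 (0.96) and AP3M2 (0.96). Among the members r was 0.84 for INHBA with SLCO4C1, 0.75 for C30H15orf48 with SLCO4C1 and 0.62 for INHBA with C30H15orf48. MIOX had r of -0.34 with INHBA, 0.09 with C30H15orf48 and -0.31 with SLCO4C1.

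The next comparison asked whether the members differed, among late-gate cells of the same dog, between cells with at least 2 CXCL8 UMIs (1143, 890 and 1086) and the rest (3514, 1826 and 1678). Counts were summed in each library and side and fitted over all genes with the library as a block (quasi-likelihood test of edgeR, genes called at a Benjamini-Hochberg adjusted p under 0.05). Of 8787 genes tested, 2128 were called, 24.2% in either direction, 13.2% higher and 11.1% lower in CXCL8-positive cells (1157 and 971 genes, against 910 and 415 with DESeq2). The 4 members gave 2 higher, 1 lower and 1 not called. The CXCL8-positive cells were shallower in every marrow (median 1034, 1325 and 2164 UMIs against 2405, 3106 and 5692). The stage markers moved as well: CSF3R was higher (log2 1.97 ± 0.18, SE, adjusted p = 8.6e-06 by edgeR), and CAMP lower (-2.24 ± 0.15, adjusted p = 1.1e-06).

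C30H15orf48 was at 868.0, 500.5 and 666.1 CPM in CXCL8-positive late cells and at 232.9, 119.2 and 88.5 in the rest. The groups did not overlap, and the log2 fold change was 2.20 ± 0.21 (SE, edgeR adjusted p = 5.6e-05). INHBA went the other way, from 36.5, 32.5 and 33.2 CPM in the rest to 5.09, 4.51 and 11.8 in CXCL8-positive cells. It fell in 3 of 3 marrows, with a log2 fold change of -2.31 ± 0.27 (edgeR adjusted p = 0.00018). Thus the mitochondrial gene and the activin subunit parted within the late gate.

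SLCO4C1 was at 53.8, 43.6 and 48.4 CPM in CXCL8-positive cells and 52.5, 43.9 and 39.0 in the rest. The groups overlapped and the log2 fold change was 0.03 ± 0.14 (edgeR adjusted p = 0.898). With the late gate set at 0.1% of a cell's UMIs in place of 3 UMIs it was called lower, at -0.65 (edgeR adjusted p = 0.00081).

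MIOX was at 39.6, 20.7 and 30.2 CPM in CXCL8-positive late cells and 7.84, 11.8 and 9.36 in the rest (log2 1.56 ± 0.26, edgeR adjusted p = 0.0018). That call rested on cells of the AHSP gate. The 42 such cells on the CXCL8-positive side held 259 of its 277 MIOX UMIs, and the 71 on the other side held 333 of 374. Without them MIOX did not pass the filter on low counts, and its level was 0.459, 4.02 and 2.08 CPM against 0.710, 1.37 and 1.29, which overlap. The fold changes of INHBA (-2.16, adjusted p = 7.5e-05) and C30H15orf48 (2.35, adjusted p = 7.5e-06, both edgeR) remained without those cells.

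The level of C30H15orf48 climbed with the number of CXCL8 UMIs in a cell and then levelled. With AHSP-, VCAN- and VPREB1-gate cells left out, late cells with 0 CXCL8 UMIs had 262.1, 145.4 and 92.6 CPM and those with 1 had 770.0, 226.7 and 203.8. The level was 1419, 584.0 and 498.6 CPM at 2 to 4, 1558, 959.5 and 1094 at 5 to 9, and 1432, 907.7 and 938.8 at 10 or more. INHBA went from 53.6, 50.6 and 44.4 CPM at 0 to 18.6, 14.5 and 38.1 at 1 and to 0, 0 and 6.44 at 10 or more, so that whole marrow 3 kept a higher level over the middle range. SLCO4C1 lay between 49.2 and 114.2 CPM in all bins and marrows. It went from 70.1, 63.5 and 49.2 CPM at 0 CXCL8 UMIs to 114.2, 87.2 and 57.9 at 10 or more. Those top bins rest on 15, 22 and 72 SLCO4C1 UMIs, and the rise was not steady in any marrow.

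**Figure D4:**
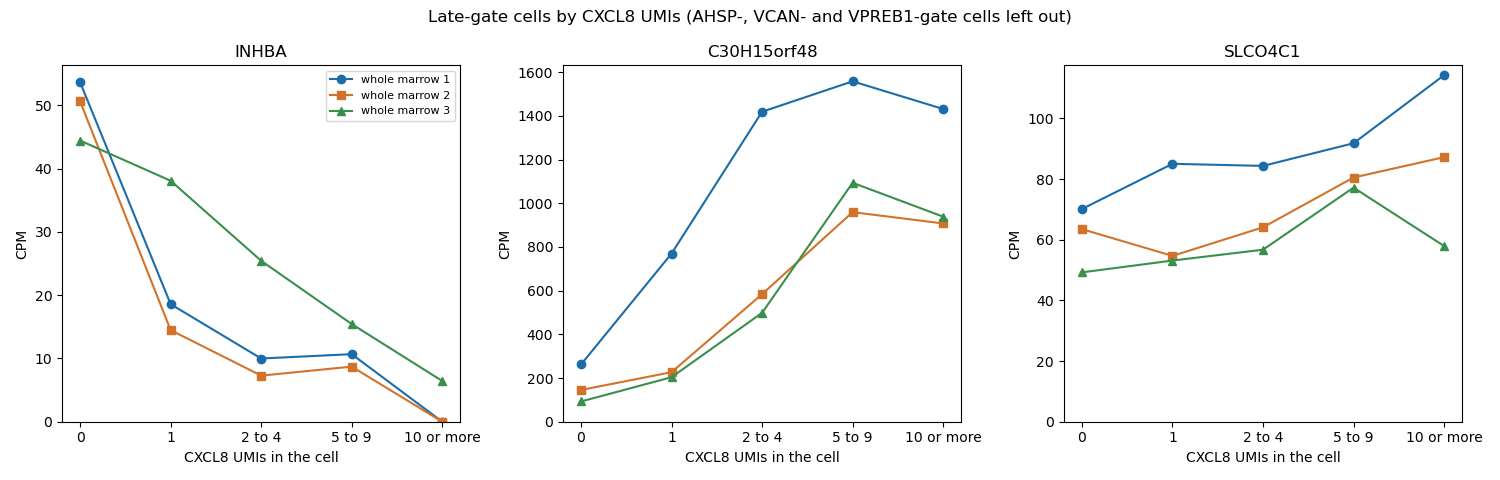
CPM of INHBA, C30H15orf48 and SLCO4C1 (linear axes from 0) in late-gate cells grouped by their CXCL8 UMIs, with 1 line for each whole-marrow library. INHBA falls from 53.6, 50.6 and 44.4 CPM at 0 UMIs to 0, 0 and 6.44 at 10 or more, while C30H15orf48 rises from 262.1, 145.4 and 92.6 CPM to a plateau from 5 UMIs on.

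The same split appeared cell by cell after thinning to 1000 UMIs. Late cells here are those of at least 1000 UMIs outside the AHSP, VCAN and VPREB1 gates (3217, 2031 and 2437 cells). CXCL8 was found in 33.3%, 50.2% and 64.5% of late cells with a C30H15orf48 UMI and in 10.8%, 18.1% and 25.2% of those without. It was found in 5.06%, 2.15% and 6.49% of late cells with an INHBA UMI and in 18.7%, 27.8% and 37.8% of those without. A C30H15orf48 UMI was present in 20.2%, 12.9% and 16.9% of INHBA-positive late cells against 32.4%, 27.1% and 29.8% of the others. For SLCO4C1-positive late cells the CXCL8 share was 21.7%, 25.1% and 39.2% against 17.6%, 26.7% and 36.6%, with no common direction over the marrows. These shares are a description, since cells of a marrow are not replicates.

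Genes that act with the members were read in lists. The late gate was compared, in the same kind of fit, with LTF+MMP8-gate cells outside it, called granule-stage cells here (811, 541 and 244 cells). Of 9034 genes, 3829 were called, 42.4% in either direction, 22.8% higher and 19.6% lower in the late gate. Neither side was a single stage. With early and other-lineage gates left out, 617 of 1596 granule-stage cells and 8260 of 10137 late cells remained. Fold changes are relative to TMM scaling, under which the median gene lay at -0.02, and on plain CPM it lay 0.33 higher on the log2 scale. All list genes called kept their direction on CPM.

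The activin list held 21 ligands, receptors and signal carriers of the TGF-beta family, and 9 of them were tested. In the late gate 8 were higher (6 with DESeq2) and 0 lower, with a median log2 fold change of 1.62. Over all genes 22.8% were called higher. Granule-stage counts, summed over the marrows, ran from 6 UMIs (ACVR1B), 10 (TGFBR1), 17 (TGFBR2) and 20 (FURIN) up to 317 (TGFB1). The late gate included 396, 370 and 238 VCAN-gate cells. TGFBR2, the type II TGF-beta receptor, went from 1.18 ± 0.260 to 6.86 ± 1.46 CPM (log2 2.20 ± 0.33, edgeR adjusted p = 0.00055). FURIN, the protease that matures activin and TGF-beta precursors, went from 1.39 ± 0.243 to 6.56 ± 1.59 CPM (1.88 ± 0.32, edgeR adjusted p = 0.0012). ACVR1B, a type I activin receptor, had 2.08 ± 0.916 against 0.426 ± 0.270 CPM (1.91 ± 0.59, edgeR adjusted p = 0.025), a call lost with DESeq2 (adjusted p = 0.11) and without whole marrow 2 (0.11). The other subunits INHA and INHBB and the type II receptors ACVR2A and ACVR2B were not among the genes tested, and their late-gate means were 0.0444, 0, 0.244 and 0.345 CPM. In CXCL8-positive late cells, where INHBA was lower, 2 of the 9 were called higher, TGFBR2 (1.95 ± 0.26, edgeR adjusted p = 0.00018) and FURIN (1.84 ± 0.25, edgeR adjusted p = 0.00017), and 0 lower. Over all genes tested in the CXCL8 split 24.2% were called, 13.2% higher. The 2 of 9 are thus values of 2 genes and not a result about the list. The ligand subunit INHBA and these 2 genes moved in opposite directions in the CXCL8 comparison.

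Around C30H15orf48, the cytochrome oxidase list had 9 tested genes of 12 with a symbol, and NDUFA4 was not analysed here. In the late gate 0 were called higher and 3 lower (4 with DESeq2), at a list median of -0.35 (near 0 on plain CPM). Over all genes 19.6% were called lower. The 3 list genes called lower were COX5A (-0.66 ± 0.18), COX7A1 (-0.63 ± 0.15) and MT-CO2 (-0.63 ± 0.19), subunits of the oxidase. All 3 calls were lost without whole marrow 1 (edgeR adjusted p = 0.19 to 0.35) and without the replicate block (0.078 to 0.14). In CXCL8-positive late cells, where C30H15orf48 was higher, 5 of the 9 were called lower (3 with DESeq2) and 0 higher, at a median of -0.42, among them COX7A1 (-0.84 ± 0.19) and COX5A (-0.59 ± 0.14). Over all genes 11.1% were called lower in the CXCL8 split. COX7A1 turned to 0.28 (not called) with the late gate at 0.1% of UMIs. COX5A was at 407.3, 340.0 and 222.4 CPM in CXCL8-positive late cells against 493.3, 440.6 and 405.5 in the rest.

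Around MIOX, the inositol list had 10 tested genes, of which 2 were higher and 2 lower in the late gate at a median of -0.08. These 4 of 10 are a share near the 42.4% of all genes, so the genes named next are values and not a result about the list. SLC2A13, a proton-coupled inositol carrier, was higher (1.59 ± 0.28), as was INPP1, an inositol phosphatase (1.05 ± 0.24), and DCXR, xylulose reductase of the glucuronate path, was lower (-1.14 ± 0.20). The calls of SLC2A13 and INPP1 were lost with early and other-lineage gates left out (edgeR adjusted p = 0.28 and 0.16). In CXCL8-positive late cells 1 of the 10 was higher and 3 were lower (0 and 2 with DESeq2), at a median of -0.19, among them UGP2 (-0.88 ± 0.14) and DCXR (-0.87 ± 0.14). In the AHSP gate, where MIOX was concentrated, the sodium-coupled inositol carriers SLC5A3 and SLC5A11 had 0 UMIs, and UGDH, which makes glucuronate from sugar nucleotides, had 17.2 ± 5.15 CPM against 22.5 ± 5.88 in the late gate.

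Among 9 other SLCO transporters, 2 could be tested between late and granule-stage cells, and SLCO4A1 was lower (-1.32 ± 0.35) at 1.52 ± 0.597 against 3.17 ± 1.86 CPM. That call was lost without whole marrow 1 (edgeR adjusted p = 0.053) and without the replicate block (0.091). In CXCL8-positive late cells 1 could be tested and 0 were called. SLCO1A2, SLCO1B3, SLCO1C1, SLCO2A1 and SLCO6A1 had 0 UMIs in all 8 whole-marrow gates.

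The sorted CD34+ libraries were almost free of the 4 genes. In 61101458 and 61067254 UMIs they held 7 and 0 MIOX UMIs, 4 and 7 INHBA UMIs, 3 and 2 C30H15orf48 UMIs and 14 and 24 SLCO4C1 UMIs. A count of 0 in the second library allows up to 0.0491 MIOX CPM (3 counts, counting error only). Of the 7 MIOX UMIs in the first, 5 lay in 1 AHSP-gate cell. SLCO4C1 stood at 0.229 and 0.393 CPM in the sorted libraries, against 22.1, 16.6 and 18.7 in whole marrow.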

How the data were processed

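Droplet libraries (10x Genomics, 3' end counting) of 3 whole marrows and 2 CD34+ sorts were used. The deposited matrices hold raw UMI counts for each gene in each barcode, not normalized, made with Cell Ranger 7.0.1 per the file headers (7.1.0 per the submitters' processing notes) on CanFam 3.1. The aligner's settings and the annotation are not given in the sources used here. Whether introns were counted, and whether overlapping genes on opposite strands were kept apart, is likewise not given.

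Barcodes with at least 200 genes and at most 10% mitochondrial (MT- or ND4L) UMIs were kept. Doublets were kept in the main values and marked with scrublet (scanpy 1.11.5) for an alternative. CPM is 1000000 times a gate's summed UMIs of a gene over its summed UMIs of all genes. Equal-depth shares thinned each cell to 1000 UMIs and left out shallower cells. Sums per library and side were tested with edgeR 4.0.16 (TMM, filterByExpr, robust quasi-likelihood fit, library as block), with DESeq2 1.42.0 as an alternative. Both sides of each sum come from the same dog, which gives the pairing. The fit was tested on simulated data. Intervals and floors cover counting error only.

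The members, gates and gene lists were chosen with earlier results of these data known. Named in the text were the members, up to 3 called genes of largest change per list between stages and up to 2 in the CXCL8 split, the 5 genes most like each member (1 of those for MIOX is not reported here), and stage markers. The other genes named are gate or marker genes, or list genes at 0 or of direct relevance, chosen after their values were seen. The AHSP bands, the disjoint groups, the CXCL8 bins and the values without AHSP-gate cells were added after the data had been seen.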

Additional observations from a re-analysis of the deposited data

How the results depend on the processing

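The 3829 genes called between late and granule-stage cells became 2195 without the replicate block, 2117 with early and other-lineage gates left out, 6589 with the late gate at 0.1% of UMIs, and 2252 to 4572 with 1 marrow left out (2252 without whole marrow 1). The 2128 called in the CXCL8 split became 395 without the replicate block, 1325 with DESeq2, 613 at 500 genes, 1170 with the late gate at 5 UMIs, 3656 with early and other-lineage gates left out, 3238 with AHSP-gate cells left out (chosen after seeing the data), and 1398 to 1781 with 1 marrow left out (1398 without whole marrow 1). The share of calls that were higher went from 54.4% to 68.7% with DESeq2. INHBA and C30H15orf48 kept direction and call in the CXCL8 split under every alternative run. Without the replicate block their log2 fold changes were -2.26 and 2.15, and that of MIOX 1.59. MIOX lost its call with the late gate at 2 UMIs (0.57), 5 UMIs (1.54) and 0.1% (0.39). SLCO4C1 turned to -0.28 at a 5% mitochondrial limit, -0.23 at 500 genes, -0.13 with the late gate at 5 UMIs, -0.65 at 0.1% and -0.050 with CXCL8 at 1 UMI, and ranged from -0.056 (without whole marrow 3) to 0.17 with 1 marrow left out. COX7A1 turned to 0.28 at 0.1%.

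Mean levels in CPM moved by more than their SD as follows, the cause not tested. At a 5% mitochondrial limit they were 12.8 (MIOX, late), 449.1 (MIOX, AHSP), 39.8 and 40.8 (INHBA, LTF+MMP8 and late), 334.4 and 802.8 (C30H15orf48, late and CXCL8), and 58.9 and 63.4 (SLCO4C1, LTF+MMP8 and late). In cells of exactly 1 gate the same 8 values were 1.61, 339.4, 24.2, 0.702, 516.2, 1412, 36.1 and 28.5. As means of each cell's CPM they were 3.81 (MIOX, late), 45.7 and 36.8 (INHBA), 735.7 and 1409 (C30H15orf48), and 79.6 and 82.1 (SLCO4C1). MIOX in the late gate was 7.56 without doublets and 1.35 without AHSP-gate cells, and INHBA in the LTF+MMP8 gate 38.2 without AHSP-gate cells. C30H15orf48 was 164.9 and 365.4 at 500 genes.

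With 3 marrows, the fits measure how far the difference within a dog varied between dogs, and INHBA and SLCO4C1 rest on single UMIs in most positive cells.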
